A study of Mus musculus with 4 samples.

Results

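The imprinted growth genes are 10 genes, Peg3, Mirg, Meg3, Igf2, H19, Dlk1, Cdkn1c, Plagl1, Mest and Ndn, out of 27606 gene names on the array. They were found through the gene name of each probe, with older synonyms such as Gtl2 for Meg3, and they are read by 20 probes on 29 spots. The set was chosen by its log2 levels on these same 4 arrays, so every value below is a description and none is a test. Expression was measured in AT-II cells, the surfactant-producing epithelial cells of the alveolus, sorted from lungs of female mice by flow cytometry. The 4 groups are WT and Tlr3 deficient (Tlr3-/-) mice, each with and without a tumor. The tumor groups received Lewis lung carcinoma, a mouse lung cancer line, under the skin and were taken at week 2. Tlr3 is a sensor of double-stranded RNA, and the arrays were made to compare AT-II expression with a distant tumor in the presence and absence of this sensor. Each group is 1 array. The labels give neither the age of the mice, nor the strain, nor whether animals were pooled, so a difference between arrays carries no replicate check, and the number of arrays limits the precision.

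Imprinted genes are expressed mainly from the copy inherited from 1 parent, and the parental copies differ in DNA methylation laid down in the germ line. Many act on fetal growth in opposing directions, with paternally expressed genes such as Igf2 promoting growth and maternally expressed genes such as H19 and Cdkn1c restraining it. Most are high in the embryo and placenta and decline in adult tissue, where they are often kept in stem, stromal and endocrine cells. Of the 10 genes, 4 are expressed from the maternal copy (Mirg, Meg3, H19, Cdkn1c) and 6 from the paternal copy (Peg3, Igf2, Dlk1, Plagl1, Mest, Ndn). Array signals do not separate the copies.

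Levels are log2 intensity minus the log2 of the 75th percentile of each array, which was 555, 796, 758 and 904 intensity units on the arrays of WT mice, first without and then with tumor, and of Tlr3 deficient mice, likewise. Sets of 4 values below follow that order. Between 61.0% and 65.4% of spots were well above background, a flag set by the scanner software, and 0 were saturated. Tlr3 was lower on both Tlr3 deficient arrays, at -3.93, -3.94, -5.45 and -5.30 for its brighter probe, and the labels do not say whether the probe lies in the deleted part. Both Tlr3 probes were well above background on every array, Tlr3 deficient with tumor included, except Tlr3 deficient without tumor. The array labelled Tlr3 deficient without tumor goes against its label in 1 respect: 4 of 4 Y-linked genes (Uty, Kdm5d, Eif2s3y and Ddx3y) were well above background there and 0 on each of the other arrays, although every mouse is labelled female. The X-inactivation RNA Xist read 4.05, 4.04, -4.05 and 3.80, lowest on this array. Whether a male animal was used or a label exchanged was not tested. Differences that use this array also compare arrays with and without Y-linked transcripts, so ranges are given with and without it. AT-II markers were well above background on every array (14 of 14), with summed levels of 2495, 2530, 2341 and 2253 times the 75th percentile, and 0 of 14 differed by 2-fold in the 4 tumor and genotype comparisons. The WT array with tumor and the Tlr3 deficient array without tumor shared a slide. Slide and group cannot be told apart.

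The probes that carry the clearest pattern are shown first, because 5 of them read 1 noncoding transcript and the others read its neighbor Mirg and Peg3, the genes with the largest tumor differences of the set in Tlr3 deficient cells. Each is a 60-base probe, given as in the array files with mm9 positions, wholly in lower case. The first Meg3 probe spans a splice junction, so its positions enclose an intron.
Meg3 (chr12:110787974-110796459, plus strand): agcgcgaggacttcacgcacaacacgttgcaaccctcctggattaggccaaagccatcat
Meg3 (chr12:110797172-110797231, plus strand): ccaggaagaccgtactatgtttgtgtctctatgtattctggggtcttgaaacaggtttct
Meg3 (chr12:110799558-110799617, plus strand): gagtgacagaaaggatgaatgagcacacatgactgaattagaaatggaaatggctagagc
Meg3 (chr12:110800898-110800957, plus strand): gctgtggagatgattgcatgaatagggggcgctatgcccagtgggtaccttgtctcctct
Meg3 (chr12:110809678-110809737, plus strand): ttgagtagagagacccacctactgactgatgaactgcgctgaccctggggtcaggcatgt
Mirg (chr12:110979536-110979595, plus strand): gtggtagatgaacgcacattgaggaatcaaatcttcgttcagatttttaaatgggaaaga
Peg3 (chr7:6660440-6660499, minus strand): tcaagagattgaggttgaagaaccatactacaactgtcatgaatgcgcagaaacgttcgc

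All 10 genes were well above background on at least 1 array and 9 on all 4, the exception being Mirg, which was not on the Tlr3 deficient array with tumor. Of the 20 probes, 14 were well above background on all arrays and 20 on at least 1. The genes fell into 3 kinds. Peg3, Mirg and Meg3 ranged over more than 4-fold and were lowest on the Tlr3 deficient array with tumor. Mest had a range of 4.57-fold and Dlk1 of 2.99-fold, each set by 1 array that was high, for Mest the Tlr3 deficient array without tumor and for Dlk1 the WT array without tumor. The others, Igf2, H19, Cdkn1c, Plagl1 and Ndn, stayed within 2-fold over the 4 arrays. The median range of the 10 genes was 1.27 log2 units. Without Mirg, for the 9 well above background on every array, it was 0.97 (H19), against 0.49 for all genes that met this filter. A range of 2-fold or more was found for 5 genes, against 25.9% of the 18865 genes well above background on at least 1 array. Without the Tlr3 deficient array without tumor, 4 genes kept such a range (Peg3, Mirg, Meg3 and Dlk1), against 18.4% of all genes.

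**Figure D1:**
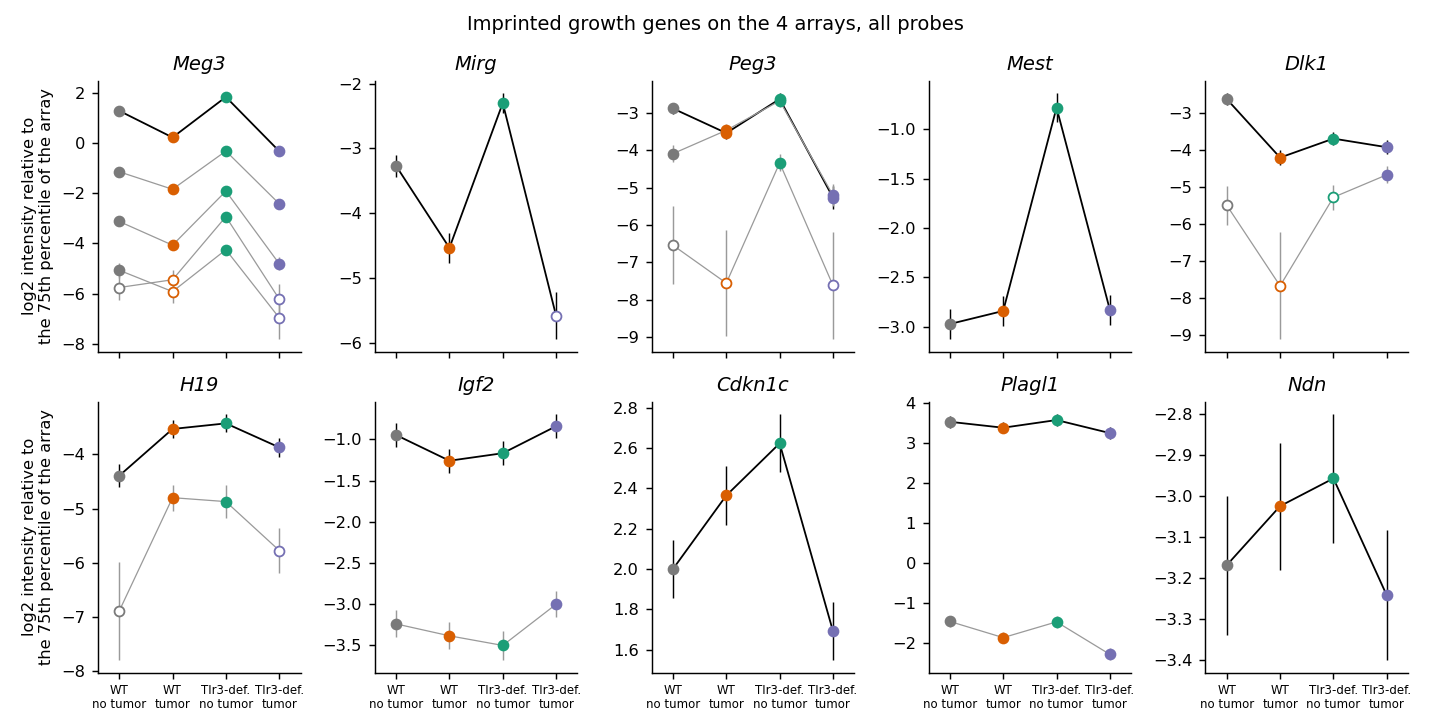
Levels of each probe of the 10 genes on the 4 arrays, as log2 intensity relative to the 75th percentile of the array, on an axis scaled to each gene. Black lines join the brightest probe of a gene and grey lines its other probes, open circles are not well above background, and bars are the SD of the scanner's error model within an array, not between animals. Meg3, Mirg and Peg3 fell to their lowest levels on the Tlr3 deficient array with tumor, and Mest stood out on the Tlr3 deficient array without tumor.

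Meg3, a long noncoding RNA from the maternal copy known as a tumor suppressor, was lower with tumor in both genotypes. Its brightest probe (chr12:110809678-110809737, printed last among the Meg3 probes) read intensities of 1350, 928, 2700 and 721, or levels of 1.28, 0.22, 1.83 and -0.33. Both extremes were Tlr3 deficient arrays, the highest without and the lowest with tumor. The tumor difference was -1.06 log2 in WT (2.09-fold lower) and -2.16 in Tlr3 deficient cells (4.47-fold lower), each with a within-array error of 0.20 log2. Between genotypes it differed by 0.55 without tumor and by -0.55 with tumor.

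Of the 5 Meg3 probes, 3 were well above background on all arrays, and they gave the same highest and lowest arrays. The splice junction probe read levels of -1.14, -1.84, -0.32 and -2.42, a tumor difference of -0.70 in WT and -2.10 in Tlr3 deficient cells. The probe at chr12:110800898-110800957 read -3.12, -4.07, -1.92 and -4.81, and its tumor differences were -0.94 and -2.89. The WT difference was under 2-fold on these probes and over it on the brightest.

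Dim Meg3 probes are limited by background. The probe at chr12:110797172-110797231 read -5.06, -5.91, -4.25 and -6.96 and was not well above background on either tumor array. It was at least 2.24-fold lower with tumor in Tlr3 deficient cells. The probe at chr12:110799558-110799617 was well above background only on the Tlr3 deficient array without tumor, at an intensity of 99.3, and was at least 5.59-fold lower with tumor there. Both dim probes read highest without tumor in Tlr3 deficient cells, and their order among arrays not well above background has no meaning. The full order of Tlr3 deficient without tumor over WT without tumor over WT with tumor over Tlr3 deficient with tumor held for the 3 probes measured on all arrays. By their brightest probes it held for 4 of the 10 genes (Peg3, Mirg, Meg3, Plagl1) and for 5.53% of all genes.

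Mirg, a noncoding RNA about which many microRNA genes are clustered, lies farther along the same maternally expressed cluster. Its probe read intensities of 57.6, 34.4, 154 and 18.9, the last not well above background, at levels of -3.27, -4.53, -2.30 and -5.58. With tumor it was 2.40-fold lower in WT, a difference of -1.26 with a within-array error of 0.29, and at least 8.66-fold lower in Tlr3 deficient cells. Without tumor the genotypes differed by 0.97, or 1.96-fold, and with tumor Mirg was at least 1.84-fold lower in Tlr3 deficient cells. The Mirg probe and 4 of the 5 Meg3 probes lie in array columns 1 to 51, where, on the WT array without tumor, replicate spots spread by an SD of 0.34 log2, against 0.11 in columns 52 to 85. The differences that use that array carry this spread, and those within Tlr3 deficient cells do not.

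RefSeq places 19 mature microRNAs from 10 genes within Mirg, 6 from 3 genes within Rian and 3 from 2 genes within Meg3. The array does not measure mature microRNAs, so their levels are not known here. Those of Mirg that share a seed, and 3 others, show what the transcript carries, with the seed (bases 2 to 8) in capitals.
mmu-miR-453: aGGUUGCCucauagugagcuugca
mmu-miR-496a-5p: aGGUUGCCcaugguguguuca
mmu-miR-369-3p: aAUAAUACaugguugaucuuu
mmu-miR-409-3p: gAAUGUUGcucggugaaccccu
mmu-miR-410-3p: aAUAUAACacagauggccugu
Among all microRNAs placed in Mirg, Meg3, Rian, H19 and Igf2, the seed GGUUGCC of mmu-miR-453 and mmu-miR-496a-5p was the only one shared by 2 mature sequences.

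Rian, a noncoding RNA between Meg3 and Mirg, was dim. Its brighter probe (chr12:110890293-110890352) read intensities of 13.6, 56.4, 55.3 and 4.68 and was well above background on the WT array with tumor and the Tlr3 deficient array without tumor. By this probe, Rian was at least 3.11-fold lower with tumor in Tlr3 deficient cells. The other Rian probe read 13.2, 4.29, 53.5 and 4.75 and was well above background only on the third of these arrays. It was at least 3.01-fold lower with tumor there. The probes read alike on 3 arrays and differed on the WT array with tumor, so that the first gave a tumor difference in WT of at least 2.69-fold higher and the second was not well above background on either WT array. The direction of Rian in WT is therefore not settled. From Meg3 to Mirg there are 11 probes, among them 3 of unnamed cDNAs that were not well above background on any array. The number well above background was 5, 5, 8 and 3. Each of the 8 measured on the Tlr3 deficient array without tumor read highest there, the brighter Rian probe by 0.04 log2. Dio3, the paternally expressed gene of a thyroid hormone deiodinase at the far end of the cluster, read -2.56, -3.22, -2.59 and -3.90. The tumor difference of Dio3 was -0.67 in WT and -1.31 in Tlr3 deficient cells (2.49-fold lower).

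**Figure D2:**
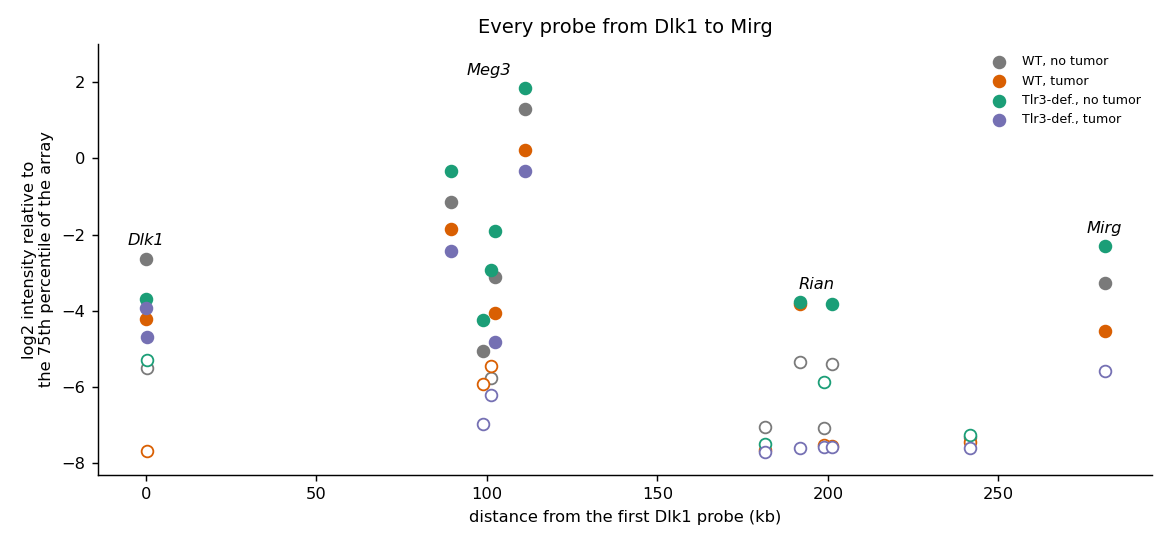
Each probe from Dlk1 to Mirg by its distance in kb from the first Dlk1 probe (horizontal) and its log2 intensity relative to the 75th percentile of each array (vertical). Filled circles are well above background. The Tlr3 deficient array without tumor (green) lies highest at the 8 probes from Meg3 to Mirg that were well above background on it but not at the Dlk1 probes, where the brighter one is highest on the WT array without tumor. Those 8 were picked by their signal on that same array, so their being highest there is in part an outcome of the filter.

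Dlk1, a transmembrane protein of the Notch ligand family that holds progenitor cells undifferentiated, is expressed from the paternal copy at the other end of this cluster. Its brighter probe (chr12:110698428-110698487) read intensities of 89.6, 43, 58.4 and 59.3, or levels of -2.63, -4.21, -3.70 and -3.93. The WT array without tumor stood above the other 3, which lay within 0.51 log2 of each other. Dlk1 was 2.99-fold lower with tumor in WT (difference -1.58, within-array error 0.25) and 2.10-fold lower in Tlr3 deficient than WT cells without tumor. In Tlr3 deficient cells the tumor difference was -0.23 with an error of 0.26. The dimmer probe was well above background only on the Tlr3 deficient array with tumor, at an intensity of 35.4, and thus did not share this order. Among 13 genes of Notch receptors and their targets, 0 differed by 2-fold with tumor in WT and only Heyl was lower, by 1.34, in Tlr3 deficient cells. Of all genes tested, 1.56% were lower and 5.67% higher in WT, and 3.89% and 4.49% in Tlr3 deficient cells.

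Peg3, a zinc finger protein from the paternal copy linked to growth, maternal behavior and p53-dependent cell death, had its lowest level with tumor in Tlr3 deficient cells. The probe printed above read intensities of 75, 68.2, 122 and 23.5, or levels of -2.89, -3.54, -2.64 and -5.27. The first 3 lie within 0.91 log2 and the last stands 1.72 below the next. Peg3 was 6.19-fold lower with tumor in Tlr3 deficient cells (difference -2.63, within-array error 0.34) and 3.30-fold lower in Tlr3 deficient than WT cells with tumor. That second comparison does not use the array with Y-linked transcripts.

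A second Peg3 probe (chr7:6658774-6658833) gave levels of -4.09, -3.47, -2.68 and -5.21. Its tumor difference in Tlr3 deficient cells was -2.52, or 5.74-fold lower, and its genotype difference with tumor was -1.73, both close to those of the first probe. In WT the probes went opposite ways with tumor, by -0.66 and 0.62, so the direction for WT is not settled. The second probe lies in the wider-spread columns of the WT array without tumor and the first does not. The third probe was well above background only on the Tlr3 deficient array without tumor (intensity 37.4) and was at least 2.10-fold lower with tumor there.

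H19 and Cdkn1c had no promoter window in the RefSeq table and were not searched. The other 8 of the 10 genes had 14 windows in all (GRCm38.p6, windows of 300 bases that include the start). They were searched for GGGGCCCC, the element bound by the member Plagl1, which reads the same on both strands. It was found in 1 window, that of Peg3, and in 1.08% of all 32851 promoters. The window is shown 5′ to 3′ on the minus strand with the match, which starts at position 50, in capitals. A match is a description of letters and not of binding.
Peg3 promoter (chr7:6730370-6730669, GRCm38.p6): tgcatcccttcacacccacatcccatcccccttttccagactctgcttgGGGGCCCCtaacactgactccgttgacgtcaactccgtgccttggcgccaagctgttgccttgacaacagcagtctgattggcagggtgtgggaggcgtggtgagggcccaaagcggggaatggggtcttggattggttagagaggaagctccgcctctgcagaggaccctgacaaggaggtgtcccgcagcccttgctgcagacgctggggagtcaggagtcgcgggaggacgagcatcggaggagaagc

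Plagl1, the zinc finger transcription factor that acts on a network of imprinted genes, was among the steadiest of the set. Its brighter probe (chr10:12851280-12851339) read levels of 3.53, 3.38, 3.58 and 3.25, and its tumor differences were -0.15 in WT and -0.33 in Tlr3 deficient cells. The dimmer probe gave -0.40 and -0.81. On both probes the tumor arrays were below the arrays without tumor, by less than 2-fold.

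By the distance between their 4 levels after centring, the genes nearest Peg3 among 15802 others well above background on all arrays were Ecrg4 at 0.23, Arxes2 at 0.48, the clock gene Per1 at 0.52, Efnb3 at 0.54 and Usp13 at 0.60 log2 units. Ecrg4 read -2.89, -3.57, -2.39 and -5.10. Meg3 was at rank 22, with a distance of 0.86. Usp29, which shares a promoter region with Peg3 and runs the other way, did not follow the first Peg3 probe. It read -3.75, -2.03, -2.27 and -2.74 and was 3.29-fold higher with tumor in WT. Its probe lies in the wider-spread columns of the WT array without tumor. The second Peg3 probe had the sign of Usp29 in each of the 4 tumor and genotype comparisons, though not in every other pairing of arrays. With tumor in Tlr3 deficient cells that probe differed by -2.52 and Usp29 by -0.47.

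Mest, a paternally expressed gene of the alpha/beta hydrolase fold family known from mesoderm and fat cell growth, stood out on 1 array. Its probe (chr6:30698279-30698338) read intensities of 70.6, 111, 441 and 127, or levels of -2.97, -2.84, -0.78 and -2.83. The Tlr3 deficient array without tumor was 4.14-fold above the Tlr3 deficient array with tumor and 4.57-fold above the WT array without tumor, and the other 3 arrays lay within 0.14 log2. Both large differences therefore rest on the array whose sex-linked transcripts go against its label. In WT the tumor difference was 0.13 with a within-array error of 0.22. Copg2, which overlaps the Mest end on the other strand, differed by 0.02 with tumor in Tlr3 deficient cells on its brightest probe.

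H19 and Igf2 share enhancers and are expressed from opposite copies, H19 as a maternal noncoding RNA and Igf2 as a paternal growth factor. H19 (chr7:149761769-149761828) read intensities of 26.4, 69, 70.6 and 61.9, or levels of -4.39, -3.53, -3.42 and -3.87. The WT array without tumor was the lowest, 1.82-fold below WT with tumor and 1.96-fold below Tlr3 deficient without tumor. The dimmer H19 probe was well above background on the WT array with tumor and the Tlr3 deficient array without tumor only.

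Igf2 is read by a probe printed on 10 spots, which gives a spread within each array. Its mean levels were -0.95, -1.26, -1.17 and -0.84, with an SD over 10 spots of 0.40, 0.079, 0.026 and 0.076. The spots of the WT array without tumor ran from 136 to 341, wider than on the others, with a median of 319 near the upper end. In WT the median spot level was -0.80 without tumor and -1.24 with tumor. Spot by spot, the tumor difference was -0.31 ± 0.37 (SD, n = 10 spots) in WT and 0.33 ± 0.081 in Tlr3 deficient cells, and the genotype difference with tumor was 0.42 ± 0.068. The difference in WT is thus smaller than its spread between spots, while the latter 2 are larger than theirs, which is a spread of spots and not of animals. The other Igf2 probe gave tumor differences of -0.14 in WT and 0.50 in Tlr3 deficient cells.

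Cdkn1c, the maternally expressed CDK inhibitor p57, had tumor differences of opposite sign in the 2 genotypes. It read intensities of 2220, 4100, 4670 and 2920, or levels of 2.00, 2.36, 2.62 and 1.69. The tumor difference was 0.36 in WT and -0.93 in Tlr3 deficient cells (1.91-fold lower), each with a within-array error of 0.20. The probe lies in the wider-spread columns of the WT array without tumor, and the WT value is close to that spread of 0.34. Of the 6 CDK inhibitors measured, only Cdkn2b differed by 2-fold, being 2.01-fold lower with tumor in Tlr3 deficient cells. In that comparison 3.89% of all genes tested were lower. Ndn, a paternally expressed gene of the MAGE family that restrains cell division in neurons, read -3.17, -3.02, -2.96 and -3.24 and had the narrowest range, 0.29 log2.

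Counted over the set, 3 of 10 genes were lower by 2-fold or more with tumor in WT (Mirg, Meg3, Dlk1) and 0 higher, against 1.56% lower and 5.67% higher of 17982 genes tested. With tumor in Tlr3 deficient cells 4 were lower (Peg3, Mirg, Meg3, Mest) and 0 higher, against 3.89% lower and 4.49% higher of 18158 genes. The median difference was -0.23 in WT and -0.69 in Tlr3 deficient cells, where all tested genes had medians of 0.00 and -0.01. Mirg and Meg3 were lower by 2-fold in both, as were 0.394% of 17275 genes tested in both. Since the set was proposed from these arrays, the counts describe how it was chosen.

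**Figure D3:**
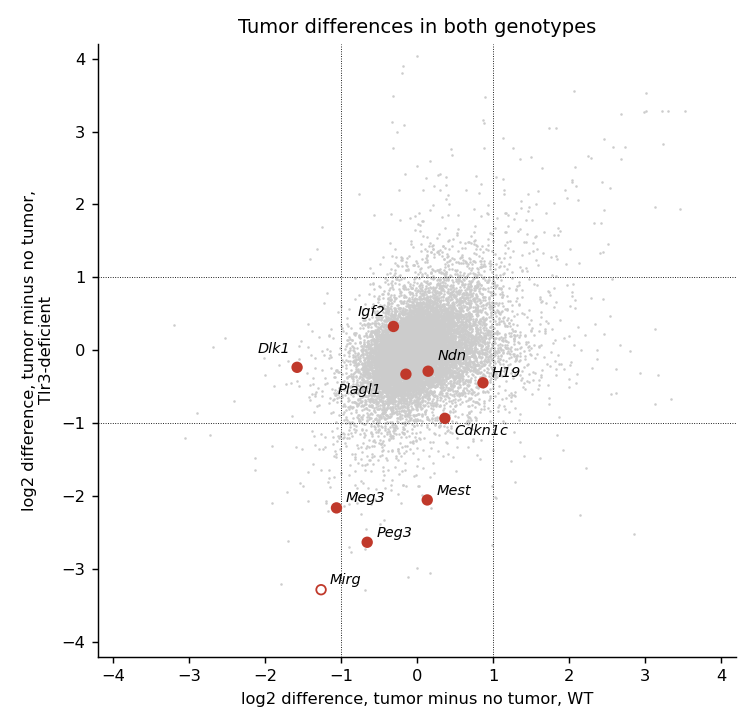
Log2 difference between tumor and no tumor in WT (horizontal) and Tlr3 deficient cells (vertical) for 15803 genes above background on all arrays (grey, 14 of them outside the axes) and the 10 imprinted growth genes (red). Dotted lines mark 2-fold and the open circle is Mirg, plotted at its measured value although it was too dim with tumor in Tlr3 deficient cells to be well above background. Peg3, Mirg, Meg3 and Mest lie below the lower dotted line, and Mirg and Meg3 also left of the left one.

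Between genotypes without tumor, 1 gene was higher by 2-fold (Mest) and 1 lower (Dlk1), against 5.89% and 2.33% of 17647 genes. By the mean of all probes 4 were higher (Peg3, Meg3, H19, Mest) and 0 lower, against 852 higher and 380 lower of 17647 genes by that mean. Single probes other than the brightest were also higher by 2-fold, by 2.66-fold for Peg3 and by 2.31-fold and at least 4.98-fold for Meg3. With tumor 0 were higher and 1 was lower (Peg3), against 2.90% and 2.66% of 18274. Of the 10 genes, 8 had their highest level on the Tlr3 deficient array without tumor, as had 23.4% of all genes. For 5 of the 8 the lead over the next array was small, at 0.04 log2 for Plagl1, 0.07 for Ndn, 0.10 for H19, 0.25 for Peg3 and 0.26 for Cdkn1c, and the dimmer probes of Plagl1 and H19 were highest on other arrays. Mest alone exceeded every other array there by 2-fold, against 2.34% of genes. Dlk1 did so on the WT array without tumor, against 0.795%, and 0 did so on the WT and Tlr3 deficient tumor arrays, against 1.40% and 2.18%. The tumor difference was lower in Tlr3 deficient than WT cells by 2-fold or more for Peg3, Meg3, H19, Cdkn1c and Mest and higher for Dlk1, against 4.53% and 2.12% of the 15803 genes measured on all arrays. By median centring the split of all genes in that difference was 498 higher and 511 lower, against 335 and 716, and Meg3 came under 2-fold at -0.95, which left 4 of the 10 genes lower.

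Neighbors at the same loci and other imprinted genes were counted in the same way. Of all genes tested, 5.67% were higher and 1.56% lower with tumor in WT, and 4.49% and 3.89% in Tlr3 deficient cells. Of 13 neighbor genes on the array, 10 were measured. Of these, 2 were higher with tumor in WT (Usp29, and Rian on 1 of its 2 disagreeing probes), and in Tlr3 deficient cells 1 was higher (Slc22a18, by 1.01) and 2 lower (Rian, Dio3). Kcnq1ot1, the noncoding RNA beside Cdkn1c, read 0.60, 0.33, 0.31 and 0.09. Igf2r, the receptor that clears Igf2, read 2.88, 2.69, 2.90 and 2.63. Phlda2, near Cdkn1c, went against most of the set, by less than 2-fold. Its tumor difference was -0.15 in WT and 0.73 in Tlr3 deficient cells, and its genotype difference without tumor was -0.71. Its dimmer probe gave -0.04, 0.82 and -0.65. The tumor differences of Snrpn were 0.22 in WT and 0.45 in Tlr3 deficient cells by its brightest probe. Those of Mkrn3 were -0.22 and at least 0.46. Of 30 other imprinted genes tested, 1 was higher and 3 were lower with tumor in WT, and of 31 in Tlr3 deficient cells 1 was higher and 2 were lower. Slc38a4, an amino acid transporter, was lower by 1.41 in WT, and Ddc, the enzyme that makes dopamine and serotonin, fell by 2.16 in Tlr3 deficient cells. Their medians were -0.10 and -0.04. Of the 11 genes that set or keep imprints, 0 were higher and 1 was lower with tumor in WT (Dppa3), and 0 of 10 in Tlr3 deficient cells differed by 2-fold.

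Of the IGF pathway genes, 5 of 13 were lower and 0 higher with tumor in Tlr3 deficient cells, against 3.89% and 4.49% of all genes. In WT 0 of 15 were lower and 2 higher, against 1.56% and 5.67%. The 5 lower in Tlr3 deficient cells included Igf1r, the receptor of Igf2, by -1.06. Igf2bp2, an RNA-binding protein of Igf2 mRNA, was lower there by -1.45 and Igfbp2, a binding protein, by -1.17. Igfbp3 was higher by 1.17 with tumor in WT. Among 18 proliferation genes, 4 were lower and 1 higher with tumor in Tlr3 deficient cells, and 0 passed 2-fold in WT, against the same shares.

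Markers of other lung cells also differed between the arrays. The fibroblast list (13 of 13 genes well above background on all arrays) had summed levels of 66.9, 52.0, 105 and 65.1 times the 75th percentile. Of its genes, 5 of 13 were lower with tumor in Tlr3 deficient cells, against 3.89% of all genes tested. Elastic fiber genes had sums of 41.6, 34.4, 70.3 and 41.5, and Eln, elastin itself, was 9.70-fold lower there. Type I cell markers had sums of 326, 221, 468 and 281, endothelial markers of 45.1, 39.9, 67.3 and 59.4, and pericyte and smooth muscle markers of 22.6, 18.1, 30.2 and 21.3. The pericyte marker Rgs5 was well above background only on the Tlr3 deficient array without tumor. By their sums these 5 lists were highest on the Tlr3 deficient array without tumor, as were Peg3, Mirg, Meg3 and Mest. Their lowest sums were on the WT array with tumor, whereas Peg3, Mirg and Meg3 read lowest with tumor in Tlr3 deficient cells. Sums weigh bright genes most, and single genes departed from them. Eln, Fbn2, Mfap5 and Col3a1 also read lowest with tumor in Tlr3 deficient cells, while Fbln2 was 2.26-fold higher there than in WT. The median gene differed between genotypes with tumor by -0.15 in the fibroblast list and by 0.17 to 0.52 in the others. Of the endothelial markers, 0 of 10 were lower with tumor in Tlr3 deficient cells, against the same 3.89% of all genes. Erythroid markers had sums of 384, 637, 644 and 306, club and ciliated cell markers of 921, 744, 608 and 652, and mesothelial markers ran from 1.80 on the WT array without tumor to 3.75 on the WT array with tumor. Striated muscle markers had sums of 2.30, 2.41, 3.62 and 2.70, and 3 of 7 were lower with tumor in Tlr3 deficient cells, against that share. Alveolar macrophage markers (9.15, 11.7, 6.83 and 16.5) and B and plasma cell markers (6.44, 7.96, 5.40 and 18.8) were instead highest with tumor in Tlr3 deficient cells. T and NK cell markers had sums of 0.352, 0.513, 0.297 and 0.505. Neutrophil markers had sums of 3.93, 108, 3.57 and 69.3, so that both tumor arrays were high, with 12 of 12 markers well above background there and 4 and 7 on the arrays without tumor. Their part in the levels of the imprinted genes was not tested, and fewer cells of a type cannot be told apart from less RNA per cell in such sorted bulk samples.

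**Figure D4:**
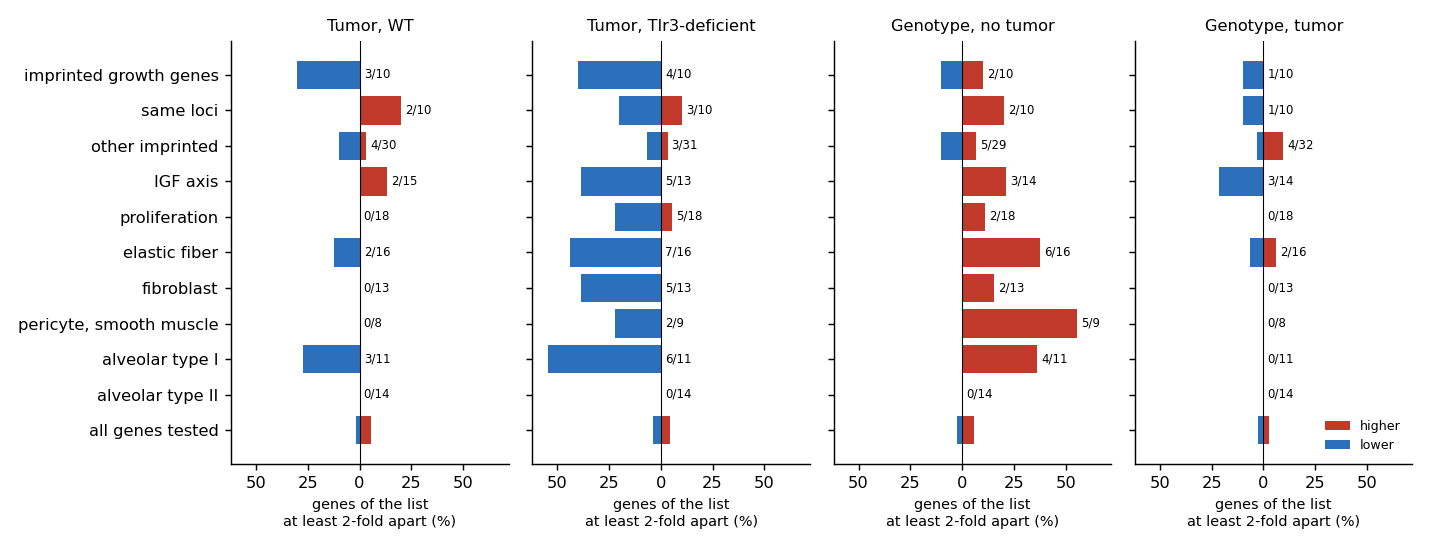
Share of the genes of each list that differed by at least 2-fold in each of the 4 comparisons, higher to the right in red and lower to the left in blue, with the number differing and the number tested beside each bar. Of the 10 lists drawn, the imprinted growth genes, IGF pathway, elastic fiber, fibroblast and type I lists have the longest bars to the left with tumor in Tlr3 deficient cells, and AT-II markers have none in any comparison.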

How the data were processed

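The deposited scanner files hold, per the file headers, the processed intensity of each spot on 4 one-colour (Cy3) Agilent arrays of design 014868, made by the authors with Agilent Feature Extraction 10.7.3.1. That program had subtracted background and detrended each array, without scaling one array to another. The authors also deposited a table of log2 values, whose making is not described in the labels. Its columns correlated with the scanner values at r = 0.9995 to 0.9998 across 41158 probes and had medians of 6.312, 6.313, 6.312 and 6.312, so scale and direction were those of log2 intensity, and the normalization stays unknown. It served only as an alternative.

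Levels are log2 intensity minus the log2 of the 75th percentile over the 43379 spots of 41174 gene probes. Spots flagged as outliers were dropped, repeated spots were averaged, and each gene was read by its brightest probe, taken over the mean of 4 arrays. A gene entered the comparison of 2 arrays if either showed it well above background, and a difference of 2-fold or more was counted. Where only 1 array was above background the fold is a bound, written "at least", computed against the lowest signal that was well above background on the dim array, or against the dim probe itself where that was higher. A value called higher or lower differed by at least 2-fold, and no p-value is given, since each group is 1 array. Within-array errors come from the scanner's error model and replicate spots. Counting was tested on simulated data in which only bright genes were changed, so the bounds used for dim probes were not tested. The simulated spread was also smaller than that of comparisons with the WT array without tumor. Python 3.11.15, pandas 2.3.3, R 4.3.3 and limma 3.58.1 were used. Probe positions are mm9 from the array files, and RefSeq sequences are GRCm38.p6.

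The 10 genes, their lists and the tests were chosen with earlier results of these data known. All 10 genes and their probes are named, with neighbors at their loci that were well above background, up to 3 genes higher and 3 lower of each other list, and the 5 genes nearest Peg3. Alternatives were quantile normalization, median centring, normexp with an offset of 50, the mean of all probes, no filter on dim probes, the value table and, added after the data were seen, leaving out each array in turn.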

Additional observations from a re-analysis of the deposited data

Results flagged for a closer look

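The tumor difference went opposite ways in the 2 genotypes for 3 of the genes, and the difference between genotypes was not tested, since each group is 1 array. Igf2 differed by -0.31 in WT and by 0.33 in Tlr3 deficient cells, H19 by 0.87 and -0.44, and Cdkn1c by 0.36 and -0.93 log2 units. For Igf2 the WT value was smaller than its SD over 10 spots, although the median spot level was also lower with tumor (-1.24) than without (-0.80). All 3 Tlr3 deficient values use the array whose sex-linked transcripts go against its label. With normexp the H19 difference in WT was 0.11 and that of Cdkn1c 0.75, and with the mean of all probes that of H19 was 1.48. The Cdkn1c value in WT was close to the spread of 0.34 log2 between replicate spots in its columns of the WT array without tumor.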

How the results depend on the processing

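No paired analysis was possible because each group is 1 array. All 16 differences of at least 2-fold named for the genes kept their direction under the 6 alternatives, and 8 kept a 2-fold size under each. With tumor in Tlr3 deficient cells the 4 genes stayed lower by 2-fold throughout, Peg3 between -2.81 and -1.48, Mirg between -3.29 and -1.67, Meg3 between -2.63 and -2.07 and Mest between -2.10 and -1.70. The WT differences of Mirg and Meg3 came to -0.75 and -0.65 at their smallest. Normexp, whose offset shrinks dim differences by construction, left 1 gene lower with tumor in WT, against 134 of 17982 genes by that setting. Between genotypes it left 0 lower without tumor, against 257 of 17647, and 0 with tumor, against 189 of 18274. By normexp the tumor difference was lower in Tlr3 deficient than WT cells for 3 genes and higher for 0, against 532 and 220 of 15803. The mean of all probes gave 1 higher with tumor in WT, against 864 of 17982 genes. Between genotypes it gave 4 higher and 0 lower without tumor, against 852 and 380 of 17647, and 1 higher with tumor, against 491 of 18274. Without a filter on dim probes 2 were lower between genotypes with tumor, against 1279 of 27606 genes. Of 294 values, 51 moved by more than the spread between replicate spots, and 0 of those past 2-fold changed sign. Median centring shifted the median of all genes by -0.15 for tumor in WT and -0.14 between genotypes without tumor, and normexp by -0.13 and -0.15. Leaving out each array in turn, which was added after the data were seen, gave 4 to 5 genes with a 2-fold range, against 5. Dim probes set the limits: 6 of 20 probes were not above background on every array.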
